A study of Homo sapiens with 4 samples.

Results

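SNHG1, SNHG3, SNHG15, SNHG16, SNHG29 and SNHG32 are lncRNA genes that host small nucleolar RNAs (snoRNAs), and peaks in the spans of all 6 were found in RNA immunoprecipitates of Flag-tagged AKT1. Those in SNHG3 also lie in a protein-coding gene, RCC1. The members here were the RIP-seq peaks that overlapped the GRCh38 span of one of these genes by at least 1 bp. There were 10 such peaks among 4838 for the mutant protein (Flag-AKT1 E17K) and 2 among 808 for the wild type (Flag-AKT1 WT), 12 of 5646 in all. MDA-MB-231, an established human breast cancer cell line, was transfected with a Flag-AKT1 E17K or a Flag-AKT1 WT plasmid, and the cells of both groups carried no other labelled alteration. E17K is an activating substitution in the lipid-binding domain of the kinase AKT1. Each plasmid had 1 anti-Flag immunoprecipitate and 1 input library, 4 in all, and its peak list is called the E17K or the WT list below. No value has a replicate, and the tests below compare libraries and not conditions. The cells also had their own AKT1, and whether the transfection was transient or stable is not given in the sources used here. The lists name the second read count only as control, and it is taken here as the input that the sample labels give, although the series description mentions control IgG.

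Introns of these host genes hold the snoRNAs, which are trimmed out after splicing and guide the chemical modification of ribosomal RNA. Box C/D snoRNAs (SNORD) guide methylation of the ribose, and box H/ACA snoRNAs (SNORA) guide pseudouridylation. The spliced host RNA that remains has no established protein product, is often exported to the cytoplasm and is commonly degraded by nonsense-mediated decay during translation. SNHG1 and SNHG15 are well known for higher expression in tumours, and SNHG3 carries the SNORA73 (U17) genes that act in ribosomal RNA processing. Transcripts of this family are also known to start with a terminal oligopyrimidine tract.

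The start sites are shown because such tracts lie at the first transcribed base. RefSeq sequence of GRCh38.p14 was found for 5 of the 6 genes, and the lines give 20 bases before and 20 after the annotated start, 5′ to 3′ on the gene's strand, with the longest unbroken run of C and T in capitals (the first one where 2 runs are equally long).
SNHG1: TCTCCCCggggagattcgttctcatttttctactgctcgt
SNHG3: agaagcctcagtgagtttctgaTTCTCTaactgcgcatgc
SNHG16: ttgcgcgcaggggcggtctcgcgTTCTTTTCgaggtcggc
SNHG29: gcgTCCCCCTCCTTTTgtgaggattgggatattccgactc
SNHG32: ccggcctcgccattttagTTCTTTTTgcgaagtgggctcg
Runs of at least 8 bases were found in 3 of the 5 genes, at SNHG16, SNHG29 and SNHG32, and in 17.5% of all 35116 promoters in windows of the same 40 bases. Runs as long as the 13 bases of SNHG29 were found in 3.16% of promoters, and runs as long as the 6 bases of SNHG3 in 38.8%. Counted from the annotated first base as +1, the run began at -20 in SNHG1 and -17 in SNHG29, in both ending before the start. It began at -2 in SNHG32, running over the start, and at +3 in SNHG3 and +4 in SNHG16. SNHG1 is a gene with 2 equally long runs, and its second, also of 7 bases, lies after the start. The capitals therefore mark the longest run near the start, and in no gene did that run itself begin at +1. In SNHG32 the run covers the annotated first base, a C, so its transcribed part begins there. No peak reached one of these windows, so the reads do not bear on them.

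Depth is known only inside peaks, because the lists give no library totals. The E17K list held 484463 immunoprecipitate and 248412 input reads and the WT list 51123 and 52223. The fold of a peak was its immunoprecipitate reads over its input reads, without scaling for library size, and its median was 2.18 in the former list and 0.976 in the latter. Folds are therefore read against the median of their own list, and a fold at least 1.5 times above or below it was called higher or lower. Of the AKT1 transcript, which the plasmids carry, 5 peaks with 15.1% of the immunoprecipitate reads stood in the E17K list, compared to 0 in the WT list, which has 0 peaks on that label of chromosome 14 and so gives no measurement of AKT1. Of 9 mesenchymal markers of MDA-MB-231, 7 had E17K peaks, VIM and AXL among them, and 0 of 9 luminal or other lineage markers did. The WT list had no peak for either set, and its peaks covered the chromosome strand of only 2 of the 7 mesenchymal markers whose strand is known.

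Most host gene peaks were well covered, as shown in the plot of reads per peak. In the E17K list they held 26 to 439 immunoprecipitate reads with a median of 177.5, compared to 39 for all peaks of that list, and 15 to 271 input reads. At least 100 immunoprecipitate reads were found in 7 of the 10. Together they held 1856 immunoprecipitate and 926 input reads, which is 0.383% and 0.373% of the reads inside peaks.

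**Figure D1:**
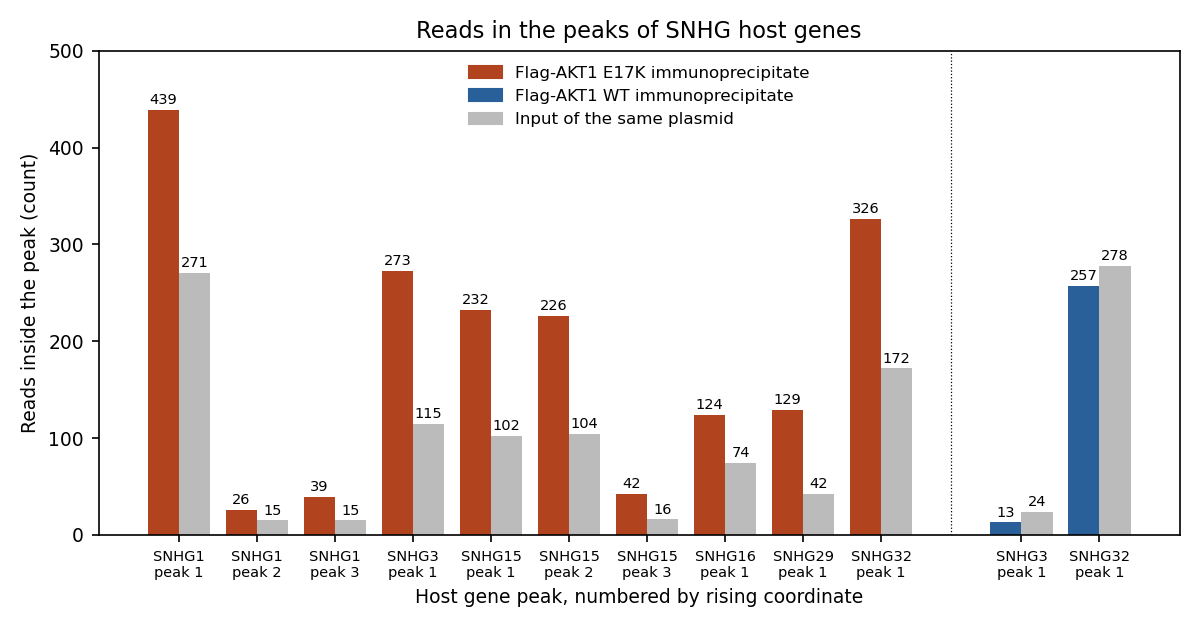
Bars give the number of reads inside each of the 12 host gene peaks (vertical axis, read count), coloured for the immunoprecipitate and grey for the input of the same plasmid, 1 library each. All 10 E17K peaks had more immunoprecipitate than input reads, and both WT peaks had fewer. This follows the whole lists, whose median folds were 2.18 and 0.976 without scaling for library size.

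SNHG1, which hosts 8 named box C/D snoRNAs, had the most immunoprecipitate reads of the 6 genes. Among lncRNAs ranked by reads in E17K peaks that overlapped no protein-coding gene, it ranked 1. The list covers chromosome strands unevenly, with 754 peaks on this label of chromosome 11 and 18 on the SNHG32 label of chromosome 6. Ranks therefore hold only for the strands covered. The peak at chr11:62851976-62853205 held 439 reads in the immunoprecipitate and 271 in the input, a fold of 1.62. The peak at chr11:62853411-62853615 held 26 and 15 reads, a fold of 1.73. The peak at chr11:62853821-62854025 held 39 and 15 reads, a fold of 2.60. Over the 3 peaks, 504 and 301 reads gave a fold of 1.67, which is 0.768 times the list median. SNHG1 was thus abundant in the immunoprecipitate and also in the input, and its immunoprecipitate share of 62.6% (95% Wilson interval 59.2% to 65.9%) lay below 68.6%, the share at which the fold equals the list median. Intervals cover counting error only.

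SNHG15, which hosts the box H/ACA snoRNA SNORA9, ranked 2 among the same lncRNAs. At chr7:44982946-44983375 it had 232 reads in the immunoprecipitate and 102 in the input, a fold of 2.27. At chr7:44983806-44984665 it had 226 and 104 reads, a fold of 2.17, and at chr7:44985526-44986170 it had 42 and 16 reads, a fold of 2.63. The 3 peaks lay between 0.996 and 1.20 times the list median, and their sum of 500 and 222 reads gave a fold of 2.25, or 1.03 times the median. The immunoprecipitate share was 69.3% (interval 65.8% to 72.5%).

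SNHG32, the host of SNORD48 and SNORD52, had the highest read density. Its peak at chr6:31839466-31839710 held 326 immunoprecipitate and 172 input reads in 245 bp, or 1331 immunoprecipitate reads per kilobase of peak. The other 5 host genes had between 155 and 307 such reads per kilobase, each taken over all its peaks, which were mostly wider. Their densest single peak, the first of SNHG15, had 540. The high density of SNHG32 was found in both libraries, and its fold of 1.90 was 0.869 times the list median.

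SNHG3 had 1 E17K peak at chr1:28508601-28509800 with 273 and 115 reads, a fold of 2.37. RCC1, whose span also holds this peak, encodes a chromatin-bound nucleotide exchange factor, and the reads cannot be assigned to either gene alone. SNHG16, the host of SNORD1A, SNORD1B and SNORD1C, had 124 and 74 reads at chr17:76563601-76564400, a fold of 1.68. SNHG29, the host of SNORD49A, SNORD49B and SNORD65, had 129 and 42 reads at chr17:16439801-16440400, a fold of 3.07. On nearly the same number of immunoprecipitate reads, SNHG16 thus lay low and SNHG29 high among the host genes.

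Of the 10 E17K peaks, 5 lay above the list median, and their folds ran from 1.62 to 3.07 with a median of 2.22. None was called by fold: 0 were higher, compared to 14.9% of all peaks, and 0 were lower, compared to 6.74%. These shares are not at like depth, since the host gene peaks had a median of 177.5 immunoprecipitate reads and all peaks one of 39. SNHG29 was nearest to the limit at 1.41 times the median, at the percentile 82.2 of the list. The fold was 1.52 times the median of the other peaks on its chromosome strand and 1.58 times the ratio of the summed reads of all other peaks, both past the limit of 1.5. That sum includes the AKT1 peaks, with 15.1% of the immunoprecipitate reads, and the ratio without them was not computed. By Fisher's exact test of each peak against the rest of its list (two-sided, Benjamini-Hochberg over the list), 0 of 10 passed, compared to 0.0827% of all peaks with more and 0.186% with fewer immunoprecipitate reads. Unadjusted p-values under 0.05 were found for 2 of the 10, compared to 425 of all 4838 peaks of the list. SNHG29 had relatively more immunoprecipitate reads (odds ratio 1.58, exact interval 1.10 to 2.29, Fisher's exact p = 0.0096, adjusted p = 0.384). The first peak of SNHG1 had relatively fewer (odds ratio 0.830, interval 0.712 to 0.970, Fisher's exact p = 0.0173, adjusted p = 0.453). In the exact binomial test against the median fold, that SNHG1 peak passed as lower (adjusted p = 0.0263), as did 0.62% of all peaks. Both tests and the intervals allow for counting error only, while the spread between peaks was larger: 3.95 times the binomial variance among peaks with at least 100 immunoprecipitate reads. The median fold of those deeper peaks was 2.05, lower than the 2.18 that the binomial test used.

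**Figure D2:**
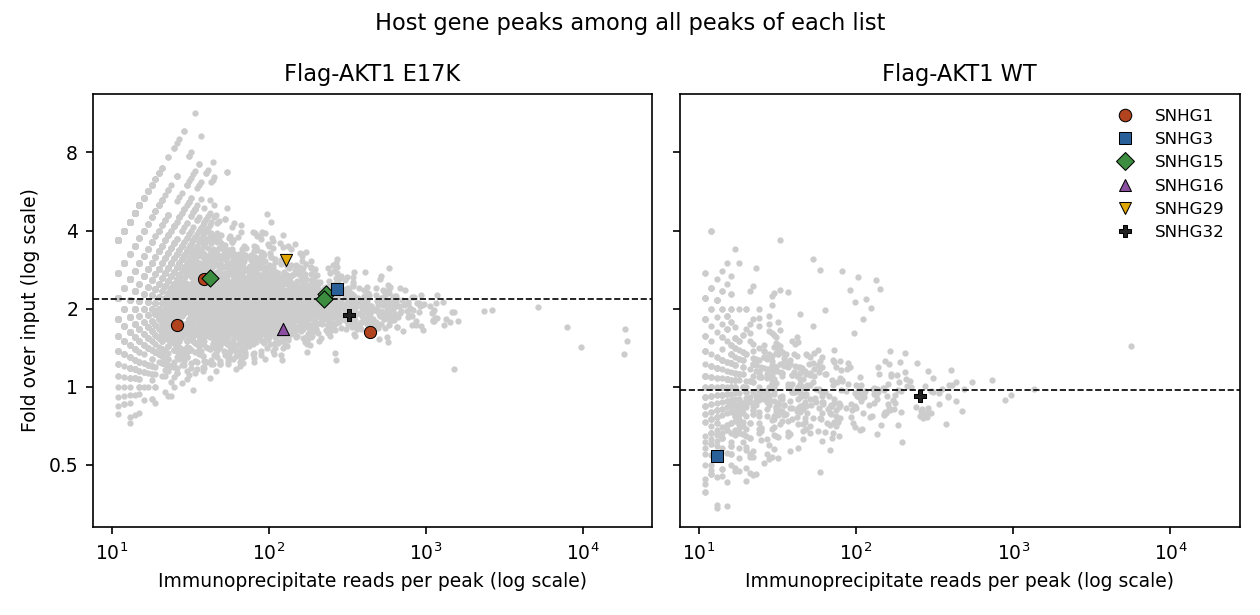
Each grey point is a peak, with its immunoprecipitate reads (horizontal, log scale) and its fold over input (vertical, log scale), and coloured symbols mark the host gene peaks. The dashed lines are the median folds of 2.18 and 0.976, and the symbols lie inside the grey cloud, on both sides of the line for the E17K list and below it for both WT peaks, with SNHG29 highest at 3.07 and SNHG3 of the WT list lowest at 0.542.

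The host genes were then compared with each other within the E17K list, where library size does not enter. Among 15 pairs of genes, the exact 95% interval of the odds ratio left out 1 in 5, all of them pairs with SNHG1 or SNHG29. The odds ratio of SNHG29 over SNHG1 was 1.83, and in the order SNHG1 over SNHG29 this is 0.545 with an interval of 0.365 to 0.803. That pair was the only one whose interval also left out 1 when widened for all 15 pairs (0.299 to 0.959). The odds ratio was 1.62 for SNHG29 over SNHG32 (interval 1.08 to 2.47) and 0.546 for SNHG16 over SNHG29 (interval 0.338 to 0.877). For SNHG1 it was 0.705 over SNHG3 (interval 0.538 to 0.922) and 0.743 over SNHG15 (interval 0.597 to 0.925). For the other 10 pairs no difference was detectable at this depth. Peaks of the same gene did not differ detectably either: in the 6 pairs within SNHG1 and SNHG15, all intervals included 1. These intervals are too narrow, because the spread between peaks was larger than counting error: 1.89 times the binomial variance over all peaks, 1.36 times without the AKT1 peaks and 3.95 times among peaks with at least 100 immunoprecipitate reads. Widened by the smallest of these factors, the interval of SNHG1 over SNHG29 for all 15 pairs was 0.270 to 1.05, so that 0 pairs were left. Without allowance for the number of pairs, intervals widened by these factors left out 1 in 1, 5 and 0 pairs, in the same order.

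**Figure D3:**
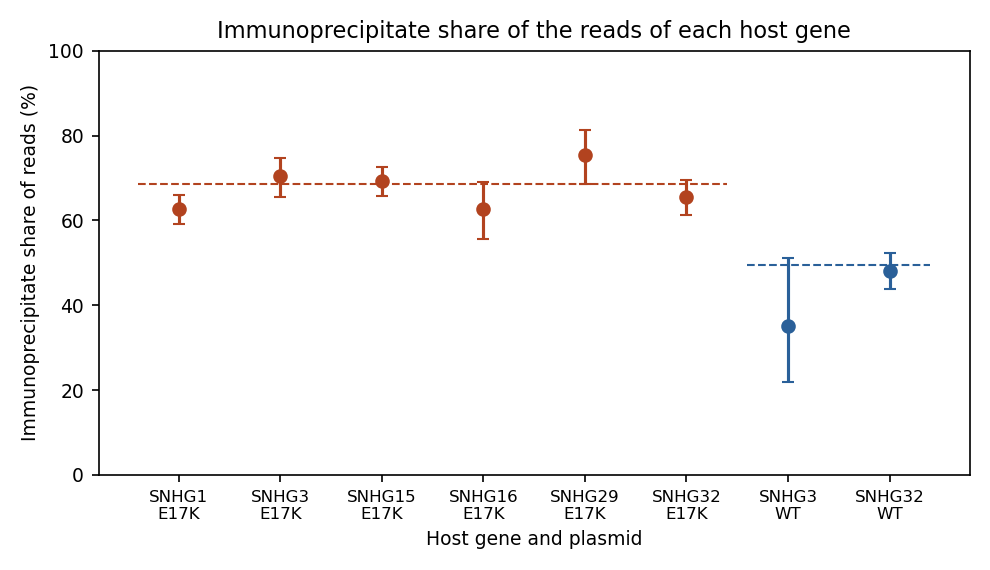
Points give the immunoprecipitate share of the reads of each host gene, summed over its peaks (vertical axis, percent), with 95% Wilson intervals for counting error. Dashed lines mark the share that equals the median fold, 68.6% in the E17K and 49.4% in the WT list. SNHG1 with 62.6% lies below the E17K line with its whole interval. SNHG29 with 75.4% lies above that line, but its interval of 68.5% to 81.3% includes it.

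Where the reads lay within the host genes was examined next, as in the map of peaks and snoRNA genes. The tables used here give no exons, so the position was measured against the snoRNA genes and the ends of the spans. The 6 spans contain 19 named snoRNA genes, and E17K peaks overlapped 4 of them, each in a different peak. SNORD22 (126 bp) and SNORD29 (65 bp) of SNHG1 and SNORD49A (71 bp) of SNHG29 lay wholly inside a peak. SNORA73B of SNHG3 overlapped by 162 of its 205 bp. The other 15 snoRNA genes, including all 6 of SNHG15, SNHG16 and SNHG32, lay outside the peaks. In SNHG1, peaks stood on both sides of SNORD31 and SNORD30, and each of these snoRNAs lay in a gap of 205 bp between peaks. SNORA9 of SNHG15 lay in a gap of 860 bp.

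**Figure D4:**
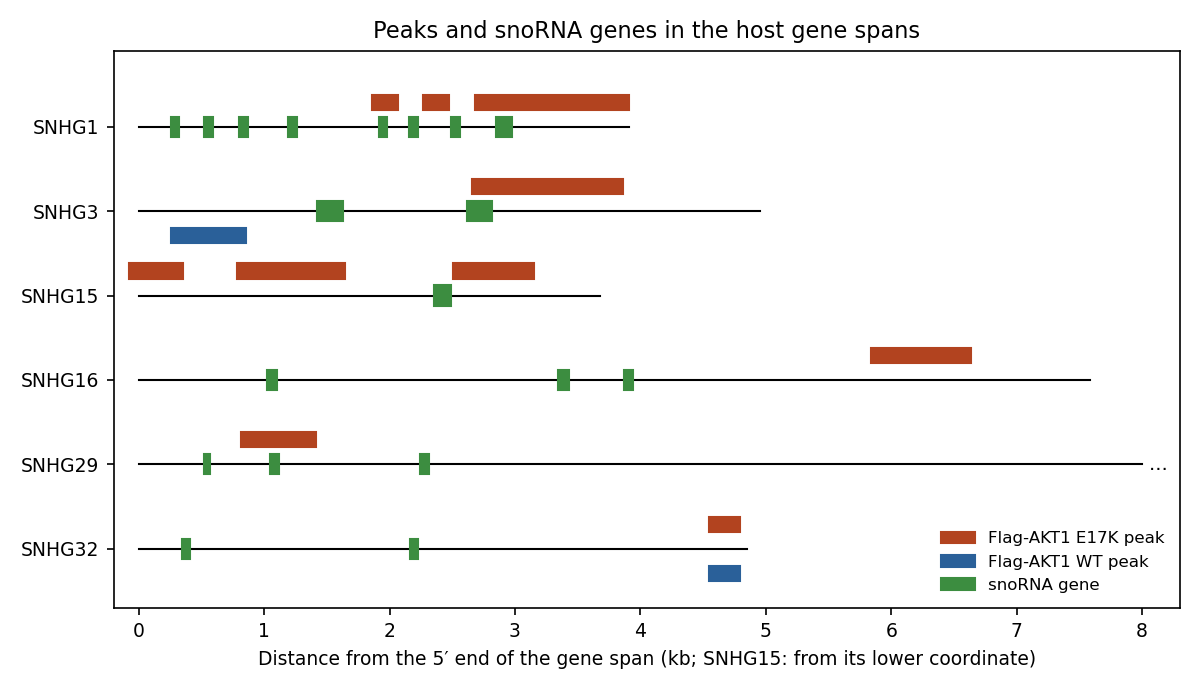
Lines are the spans of the 6 host genes from their 5′ end (horizontal axis, kb; SNHG15 from its lower coordinate, since its strand is not in the tables, and SNHG29 cut off after its first part), with snoRNA genes in green, E17K peaks above and WT peaks below. Of the 19 snoRNA genes, 4 lie under an E17K peak and 0 over a WT peak, and the SNHG32 peak of both lists lies at the 3′ end.

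Both gaps of SNHG1 are at the resolution of the list, 1 step of its grid, while the gap over SNORA9 spans 4 steps. Peak borders followed a grid with a step of 205 bp on this label of chromosome 11, 215 bp on chromosome 7, 200 bp on chromosomes 1 and 17 and 245 bp on chromosome 6, and each step is longer than a box C/D snoRNA. Reads of an intronic snoRNA and of the exons beside it therefore cannot be told apart. The 4 peaks over a snoRNA held 880 immunoprecipitate and 443 input reads (share 66.5%, interval 63.9% to 69.0%). The 6 without one held 976 and 483 (share 66.9%, interval 64.4% to 69.3%). The shares differed by less than their intervals. Median folds were 2.49 with and 2.03 without a snoRNA, which was not tested. The first SNHG1 peak alone held 439 and 271 of the reads over a snoRNA.

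Peaks over snoRNAs in other genes had a similar summed share and a lower median fold. The E17K list had 12 such peaks, with folds from 1.52 to 2.61 and a median of 1.91. The 4 host gene peaks over a snoRNA had a median of 2.49, and this difference was not tested. Among the 12 peaks, those with the most reads included RACK1, a ribosomal scaffold protein that hosts SNORD95 and SNORD96A, with 1340 and 735 reads (fold 1.82). Others were the ribosomal protein gene RPL5 with SNORA66 and SNORD21 (368 and 188 reads, fold 1.96, in peaks that also lie in the span of DIPK1A) and RABGGTB (345 and 162, fold 2.13). The summed share of all 12 peaks, 66.1% (interval 64.7% to 67.4%), lay within the interval of the host lncRNA peaks over a snoRNA. All peaks of the E17K list together also had a share of 66.1%, so the value is not particular to peaks over a snoRNA. The WT list had 2 peaks over a snoRNA, at PHB2 (151 and 193 reads, fold 0.782) and RBMX (25 and 21 reads, fold 1.19), and none of them lay in a host lncRNA.

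Toward the ends of the genes, 6 of the 7 E17K peaks of genes with a known strand were centred in the 3′ part of the span, beyond its midpoint. The third SNHG1 peak was only just beyond it, at 50.2% of the span. Over all E17K peaks in a single gene of known strand the share in the 3′ part was 74.5%. Several of the host gene peaks also overlap a snoRNA gene or RCC1, so the sets are unlike and the difference was not tested. The SNHG32 peak ended 51 bp before the 3′ end of the span and the first SNHG1 peak reached its 3′ end, while the SNHG16 peak ended 948 bp before it. SNHG29 was the exception, with a peak that started 814 bp from the 5′ end of a span of 31662 bp. That span is longer than those of the other host genes (3674 to 7585 bp), and its snoRNA genes start 522 to 2239 bp from its 5′ end. Its position and coverage therefore depend on the span used, and the place of the peak in a spliced transcript was not tested. Peaks covered from 1.90% of the span at SNHG29 to 50.6% at SNHG15.

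The strand label of the peaks ran against the strand of the host gene. SNHG1, on the minus strand, had plus labels, and SNHG3, SNHG16, SNHG29 and SNHG32, on the plus strand, had minus labels, in 9 of 9 peaks whose gene has a strand in the tables. This holds for the whole lists: the label was opposite to the gene in 3042 of 3056 E17K peaks (99.5%) and in 632 of 634 WT peaks (99.7%) that lay in 1 gene of known strand. After all peaks were moved by 1000000 bp the shares were 48.1% and 52.5%. The label thus named the strand opposite to the annotated gene, and whether the reads came from sense or antisense RNA was not tested.

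Only SNHG32 and SNHG3 had peaks in both lists. At SNHG32 the peak had the same borders in both, chr6:31839466-31839710. Flag-AKT1 WT had 257 reads in the immunoprecipitate and 278 in the input there, a fold of 0.924, compared to 326 and 172 and a fold of 1.90 for Flag-AKT1 E17K. The raw folds differed 2.05 times, but the lists as a whole differed as well. Against the median of its own list, SNHG32 was at 0.869 with the mutant and 0.947 with the wild-type protein. Against the summed reads of the remaining peaks, the odds ratio was 0.972 (exact interval 0.805 to 1.18) with the mutant and 0.944 (interval 0.793 to 1.12) with the wild type. These intervals overlap and both include 1, and the difference between the 2 odds ratios was not tested. Of the 44 pairs of overlapping peaks, 15 share this label of chromosome 6, and the raw ratio of SNHG32 compares with a median of 1.84 (range 0.966 to 4.26) over all pairs.

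SNHG3 had its peaks at different places. The WT peak at chr1:28506201-28506800 started 258 bp from the 5′ end of the gene and ended 1800 bp before the E17K peak, so their reads were not compared. It held 13 reads in the immunoprecipitate and 24 in the input, a fold of 0.542, and also lies in the span of RCC1. At 0.555 times the list median it was the 1 host gene peak of the 2 that was called lower, compared to 10.1% of all WT peaks, and 0 were called higher, compared to 14.6%. On 37 reads, Fisher's exact test did not pass (two-sided, p = 0.0995, adjusted p = 0.459). Neither host gene peak of this list passed that test, compared to 1.86% of all peaks with more and 1.24% with fewer immunoprecipitate reads.

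SNHG1, SNHG15, SNHG16 and SNHG29 had no peak in the WT list. That list has 0 peaks on the whole of chromosomes 7, 11 and 17, so it gives no measurement of these genes, and their presence in 1 list only is not a difference between the plasmids.

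Other genes of the pathway had few peaks. Of 27 other snoRNA host lncRNAs, 3 had an E17K peak: SNHG17 (150 and 70 reads, fold 2.14), SNHG7 (125 and 68, fold 1.84) and SNHG6 (43 and 25, fold 1.72, in a peak shared with the span of MCMDC2). The other genes had none, and only 11 of the 24 whose strand is known lie on a chromosome strand where the list has any peak, read with the opposite label. Of 8 core proteins of snoRNA-protein particles, NHP2 of the box H/ACA particle (240 and 99 reads in 3 peaks, fold 2.42, partly in the span of RMND5B) and SNU13 of the box C/D particle (71 and 37 reads, fold 1.92) had peaks. None of these peaks was called by fold or by Fisher's exact test, and the WT list had 0 peaks at either gene set. Of the 6 core protein genes of known strand, only 3 lie on a chromosome strand with any E17K peak and 1 on one with any WT peak. Of the 24 other hosts of known strand, 10 lie on one with any WT peak. The genes elsewhere were not measured.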

How the data were processed

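RIP-seq libraries of MDA-MB-231 cells were analysed from the 2 peak lists that the authors deposited, 1 per plasmid, each made from 1 immunoprecipitate and 1 control library. The authors deposited read counts per peak as whole numbers without normalization. The lists also hold the authors' coverage signal (reads per kilobase), log odds scores and p-values; of these only the adjusted p-values were used, in 1 alternative. The submitters' processing notes name Bowtie2 2.2.8 and hg18, but the peaks lay in GRCh38 gene spans by strand and by the shift check. The peak caller and its filters are not given in the sources used here. Gene spans and strands came from RefSeq tables of GRCh38.p14 without exons. Coordinates are those of the lists.

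Input counts of 3 or fewer would have been counted as 3, which no host gene peak needed. Peaks were tested with Fisher's exact test (scipy 1.17.1, Python 3.11.15), after a check on simulated data. Host genes, gene lists and tests were chosen with earlier results of these data known. The genes named are the 6 hosts, genes sharing their peaks, snoRNAs of the hosts (those outside peaks were added after seeing the values), listed genes with a peak, the other genes with most reads over a snoRNA, and AKT1; some results of these are not reported here. Depth inside peaks limits precision, since library totals are unknown. Alternatives were the overlap rule, a stricter threshold, coding overlaps, read minimums, other references for the fold and a binomial test.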

Additional observations from a re-analysis of the deposited data

How the results depend on the processing

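Of 75 values under alternatives, 66 kept their side of the limits or moved by less than counting error or 1.5 times, and the other 9 belonged to 5 of 25 results. SNHG29, at 1.41 times the list median, passed the limit of 1.5 against the other peaks of its chromosome strand (1.52). It also passed against the summed reads of all other peaks, which include the AKT1 peaks (1.58). Against other peaks with at least 100 immunoprecipitate reads, an alternative chosen after seeing the data, it was at 1.498, just under the limit. In the binomial test, 1 E17K host gene peak, at SNHG1, was called with fewer reads in place of 0. Without peaks in protein-coding spans, 1 WT peak was left in place of 2, since that rule removes SNHG3. For these results, other than the last, the cause was not tested. Widened by the spread over all peaks, 1 of 15 pairs of host genes kept a 95% interval that left out 1 in place of 5, and 0 did with the spread of peaks with at least 100 immunoprecipitate reads. The 1 pair past the limit for all pairs became 0 under each of the 3 widenings, which were chosen after seeing the data. No paired analysis was possible because each condition has 1 library. Fewer than 100 immunoprecipitate reads lie behind 3 of the 10 E17K host gene peaks and 1 of the 2 WT ones.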
